A study of Homo sapiens with 3 samples.

Results

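The zinc finger genes of chromosome 19 were taken as all protein-coding genes on that chromosome whose symbol begins with ZNF, 249 of 20162 protein-coding genes in the annotation. Peaks of PHF13 and of EZH2 were assigned to a member when they lay within 5 kb of any of its transcription start sites (TSS) or inside its gene body, and peaks near a TSS were kept apart from peaks over the last exon. The peaks come from chromatin immunoprecipitation sequencing (ChIP-seq) in wild-type, untreated PANC-1 cells, a line established from a human ductal adenocarcinoma of the pancreas. The study lists 3 libraries, 1 with a PHF13 antibody, 1 with an EZH2 antibody and 1 of input chromatin, all from cells crosslinked with EGS and formaldehyde. Only the peak lists of the antibodies were analysed here, and with 1 library per antibody the spread between replicates is unknown for every value. The main shares are therefore given with a 95% Wilson interval that covers counting error only, beside the same share over all protein-coding genes. For some counts of 0 the share that 3 counts would make is given as well. Neighbouring members can share a peak, so the genes are not independent of each other.

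Most genes of this family encode C2H2 zinc finger proteins, many of them with a KRAB domain that recruits the corepressor TRIM28 and the H3K9 methyltransferase SETDB1 to DNA. The fingers stand in tandem arrays that are encoded almost entirely by the long last exon, and in many cell types the 3′ ends of these genes carry H3K9me3 heterochromatin, to which the member ZNF274 recruits SETDB1. PHF13 has a PHD finger that reads methylated H3K4, a mark of active and poised starts, and EZH2 is the H3K27 methyltransferase of Polycomb repressive complex 2 (PRC2), which is known to occupy CpG-rich starts of silent developmental genes.

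The annotation showed this gene structure in the members. A C2H2 finger pattern was found at least 3 times in 245 of the 249, and the median member had 12 patterns. Of all patterns, 98.2% lay in the last exon. The median last exon of a member was 3293 bp long against 1380.5 bp over all protein-coding genes. Part of the last exon was not unique in the genome by 24-mers. In the median member 79.7% of the 24-mers of the last exon occurred once in the genome, against 98.7% over all genes. Whether longer reads could be placed there was not tested. A CpG-rich promoter, with an observed/expected CpG ratio of at least 0.6 in 500 bp on each side of the canonical TSS, was present in 197 members (79.1%) against 65.8% of all genes.

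Reference sequences at several summits show the kinds of site that the members' peaks covered. All are 100 bp of GRCh37 (hg19) around a summit, written 5′ to 3′ on the strand of the gene, from windows without untranslated exon sequence. In the first set, shown because the finger array is what distinguishes these last exons, capitals mark bases that belong to a C2H2 pattern.
ZNF780A last exon, PHF13, chr19:40580491-40580590, minus strand: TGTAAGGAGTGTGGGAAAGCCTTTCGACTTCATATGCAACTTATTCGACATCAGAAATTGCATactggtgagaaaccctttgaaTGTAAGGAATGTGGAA
ZNF226 last exon, PHF13, chr19:44680583-44680682, plus strand: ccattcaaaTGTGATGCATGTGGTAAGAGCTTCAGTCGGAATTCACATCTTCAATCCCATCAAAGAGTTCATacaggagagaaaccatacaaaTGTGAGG
ZNF571 last exon, EZH2, chr19:38055751-38055850, minus strand: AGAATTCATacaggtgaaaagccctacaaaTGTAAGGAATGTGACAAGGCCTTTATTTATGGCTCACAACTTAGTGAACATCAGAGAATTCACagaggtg

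The second set shows PHF13 and EZH2 sites assigned to gene starts, picked as examples, and capitals mark CpG dinucleotides. A CpG ratio of at least 0.6 in 500 bp at the summit was reached by 16 of 32 PHF13 peaks near a TSS. Of the 14 EZH2 peaks 2 reached it, so these windows do not stand for every peak. The windows of ZNF260, ZNF254 and ZNF419 held 11, 9 and 8 CpG. Among the EZH2 windows, that of ZNF347 held 6 and that of ZNF285 held 1.
ZNF260 start, PHF13, chr19:37019623-37019722, minus strand: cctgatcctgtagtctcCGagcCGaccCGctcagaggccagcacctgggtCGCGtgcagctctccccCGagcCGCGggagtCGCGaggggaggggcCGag
ZNF254 start, PHF13, chr19:24216460-24216559, plus strand: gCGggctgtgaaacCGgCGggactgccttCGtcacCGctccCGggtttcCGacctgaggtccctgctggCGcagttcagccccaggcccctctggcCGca
ZNF419 start, PHF13, chr19:57998960-57999059, plus strand: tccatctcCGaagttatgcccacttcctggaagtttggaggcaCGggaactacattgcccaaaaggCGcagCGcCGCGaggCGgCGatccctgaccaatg
ZNF347 first kilobase, EZH2, chr19:53661479-53661578, minus strand: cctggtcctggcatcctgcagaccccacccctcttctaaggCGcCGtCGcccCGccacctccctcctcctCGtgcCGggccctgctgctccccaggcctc
ZNF285 intron, EZH2, chr19:44904230-44904329, minus strand: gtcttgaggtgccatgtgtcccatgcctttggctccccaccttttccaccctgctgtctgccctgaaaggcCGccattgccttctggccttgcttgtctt

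The last set holds the only site that both lists shared at a member, whose windows overlap each other, and the strongest PHF13 site of any member. None of these windows held a CpG.
ZNF780A upstream, PHF13, chr19:40600893-40600992, minus strand: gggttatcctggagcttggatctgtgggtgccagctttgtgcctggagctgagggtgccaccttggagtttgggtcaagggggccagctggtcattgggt
ZNF780A upstream, EZH2, chr19:40600968-40601067, minus strand: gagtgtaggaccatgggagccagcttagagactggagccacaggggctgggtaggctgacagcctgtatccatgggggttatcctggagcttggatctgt
ZNF507 intron, PHF13, chr19:32864828-32864927, plus strand: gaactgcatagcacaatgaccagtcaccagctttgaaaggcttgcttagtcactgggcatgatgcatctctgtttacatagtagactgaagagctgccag

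Few members were bound by either protein. No peak of either list was assigned to 195 of the 249 members (78.3%), against 51.4% of all protein-coding genes. A PHF13 peak was assigned to 42 members and an EZH2 peak to 25. Of these, 13 had peaks of both lists, 29 had PHF13 alone and 12 had EZH2 alone. No share over all genes is given for these classes, and shares near a TSS and in gene bodies are compared below. The members' peaks were 54 distinct PHF13 peaks and 33 distinct EZH2 peaks. Of the PHF13 peaks, 29 lay near a TSS only, 3 near a TSS and over a last exon, 3 over a last exon only and 19 elsewhere in a gene body. The EZH2 peaks divided into 14 near a TSS, 2 over a last exon and 17 elsewhere in a gene body, and none was in both of the first classes. In each list 4 of these peaks belonged to a pair of members. Most were single-copy, meaning that the median 24-mer at the summit occurred once in the genome. This held for 39 of the 54 PHF13 peaks (72.2%) and 25 of the 33 EZH2 peaks (75.8%), against 65.6% and 67.9% of the lists. By 50-mers it held for 51 (94.4%) and 31 (93.9%), against 80.1% and 81.2% of the lists.

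Near gene starts, both proteins were found at a smaller share of the members than of all genes, and the gap was wider for EZH2. A PHF13 peak lay within 5 kb of a TSS in 32 members (12.9%, interval 9.25% to 17.6%), against 21% of all protein-coding genes. For EZH2 it was 16 members (6.43%, interval 3.99% to 10.2%), against 23.6% of all genes. Neither interval reached the value over all genes. ZNF genes on other chromosomes stood between, with PHF13 at 53 of 267 (19.9%) and EZH2 at 42 of 267 (15.7%). The other protein-coding genes of chromosome 19 had PHF13 at 226 of 1231 (18.4%) and EZH2 at 242 of 1231 (19.7%). Peaks of both lists were near a TSS in 5 members (2.01%), namely ZNF529, ZNF546, ZNF780A, ZNF780B and ZNF875, against 5.33% of all genes.

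Within 1 kb of a TSS the lists diverged further. PHF13 was present at 23 members (9.24%, interval 6.23% to 13.5%) against 13.6% of all genes. EZH2 was present at 4 members (1.61%, interval 0.626% to 4.06%) against 16.6% of all genes. No member had both (interval 0% to 1.52%), against 2.01% of all genes. Since members differ in the number of starts they have, the peaks were also counted per length of TSS window. In the windows of 1 kb the members had 19.6 PHF13 summits per Mb (exact Poisson interval 12.1 to 29.9), close to the 20.6 per Mb of all genes. EZH2 summits numbered 3.73 per Mb (interval 1.02 to 9.55) against 32.6 per Mb, which is 8.74 times lower than over all genes. In the windows of 5 kb, PHF13 had 7.66 summits per Mb (interval 5.24 to 10.8), and that interval included the 9.90 of all genes. EZH2 had 3.35 there (interval 1.83 to 5.62) against 14.4. Members with a CpG-rich promoter showed the same order: PHF13 was within 5 kb of a TSS in 28 of 197 of them (14.2%) against 24.9% of all genes with such a promoter, and EZH2 in 13 of 197 (6.60%) against 3323 of 13270.

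**Figure D1:**
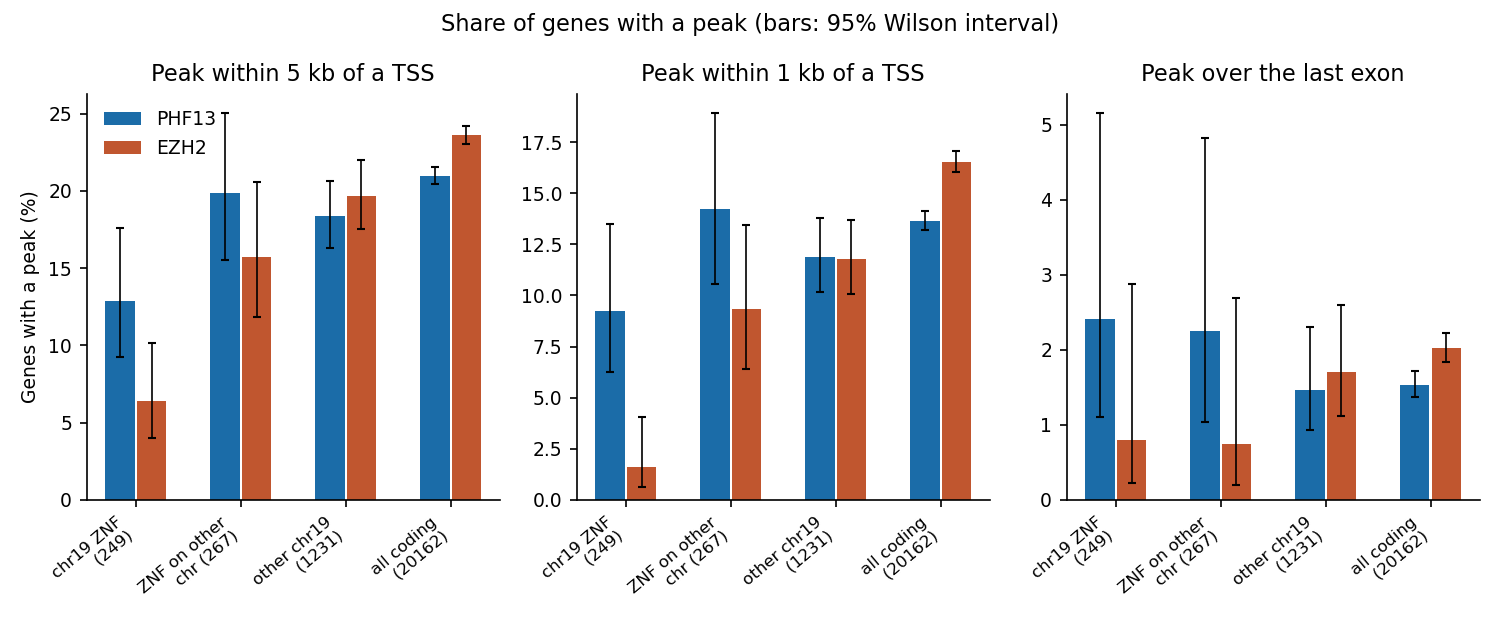
Share of genes with a peak (y axis, %) within 5 kb of a TSS, within 1 kb of a TSS and over the last exon, for the 249 chromosome 19 ZNF genes, 267 ZNF genes on other chromosomes, 1231 other chromosome 19 genes and all 20162 protein-coding genes; error bars are 95% Wilson intervals. EZH2 within 1 kb of a TSS is at 1.61% of the members and 16.6% of all genes, while the last-exon shares lie between 0.749% and 2.41% with wide intervals.

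Part of the PHF13 peaks near gene starts sat on the start itself, in CpG-rich sequence. Of the 32 peaks, 13 covered a TSS and 21 (65.6%) lay within 1 kb of one, with a median distance of 245.5 bp. Over all genes 961 of 4450 covered a TSS, the median was 472 bp and 60.1% lay within 1 kb. The CpG ratio in 500 bp at the summit was at least 0.6 in 16 of the 32 (50%, interval 33.6% to 66.4%), and all 16 were within 1 kb of a TSS. That interval included the 41.6% of all PHF13 peaks near a TSS and the 46.4% near other chromosome 19 genes. The median ratio was 0.626 in the members' peaks against 0.426 in all PHF13 peaks near a TSS. These peaks were short, with a median width of 199.5 bp, and their median summit held 23 fragments. The strongest by q, the false discovery rate MACS2 gives a peak, covered divergent starts of ZNF383 and ZNF585B, the latter not the canonical start of ZNF585B. It had 4.25-fold enrichment over the local background (−log10 q 7.61, 29 fragments over a background of 6.06). It was followed by the start of ZNF780B, at 2.02-fold (−log10 q 7.20, 109 fragments over 53.5). ZNF497 had a −log10 q of 6.74 and a fold enrichment of 3.61, also on the start. ZNF546 had 6.58 and 1.89, and ZNF780A had 6.36 and 1.97, in the same units. The peaks on the starts of ZNF30 (−log10 q 6.21, fold enrichment 3.66) and ZNF573 (5.38 and 3.70) complete the 8 members with the highest −log10 q. The high −log10 q of ZNF780B, ZNF546 and ZNF780A therefore came with many fragments at a low fold, and that of the others with few fragments at a higher fold.

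Other pairs of divergent neighbours had 1 PHF13 peak between them. The peak of ZNF569 and ZNF570 had a fold enrichment of 3.07 and 27 fragments, and that of ZNF540 and ZNF571 had 3.14 and 22. The peak 205 bp from a start of ZNF524 (fold enrichment 3.19, −log10 q 5.34) was also assigned to ZNF865, at 4998 bp just inside the limit of 5 kb. Just outside that limit lay an intronic PHF13 peak of ZNF780A, at 5046 bp.

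The EZH2 peaks assigned to gene starts were narrow, mostly CpG-poor and away from the start. None of the 14 covered a TSS, which by 3 counts allows a share of up to 21.4% (Wilson interval 0% to 21.5%), whereas 2143 of 6479 EZH2 peaks near any protein-coding TSS did. Their median distance to a TSS was 2677.5 bp, against 340 bp over all genes, and 4 of 14 (28.6%) lay within 1 kb, against 67.2%. A CpG ratio of at least 0.6 was reached by 2 of 14, and the median was 0.213 against 0.593. The median width was 159 bp against 300 bp. None exceeded 1 kb, and the interval for 0 of 14, 0% to 21.5%, included the 21.2% of EZH2 peaks near all genes that did. Near the other chromosome 19 genes 10.5% did.

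The strongest EZH2 peak near a start lay inside ZNF765, in an exon of a transcript other than the canonical one, 3498 bp from a start of ZNF765 and 4962 bp upstream of one of ZNF761. It was enriched 3.93-fold (−log10 q 7.49), with 30 fragments over 6.88, and its median 24-mer occurred 2 times in the genome. ZNF347 followed with a −log10 q of 5.05 at 688 bp and a CpG ratio of 0.622. ZNF285 and ZNF471 both reached 3.87-fold (−log10 q 4.83) with 20 fragments, at 1419 bp and 144 bp from a start. ZNF536, a regulator of neuronal differentiation, had the widest peak, 542 bp, in an intron 539 bp from 1 of its 10 starts, not the canonical one. That peak had a CpG ratio of 0.685, a −log10 q of 4.68 and 50 fragments over 20.8. ZNF875 had a −log10 q of 4.08, but the median 24-mer of that summit occurred 10893 times in the genome. Its median 50-mer occurred 106 times, so the placing of reads there is uncertain. ZNF135 had a −log10 q of 3.96 at 3199 bp. ZNF347, ZNF471, ZNF536 and ZNF415 (at 474 bp, −log10 q 3.90) were the only members with EZH2 within 1 kb.

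**Figure D2:**
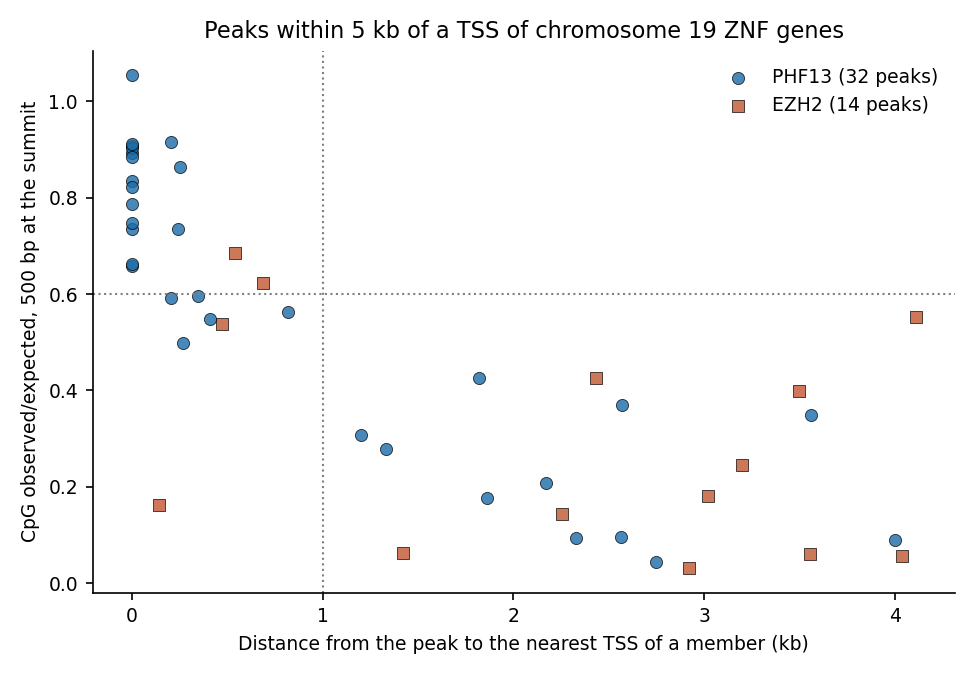
Each point is a peak near a start of a chromosome 19 ZNF gene: distance from the peak to the nearest TSS of a member (x axis, kb) against the CpG observed/expected ratio in 500 bp at the summit (y axis); dotted lines mark 1 kb and a ratio of 0.6. Of the 32 PHF13 peaks 13 lie at a distance of 0, all with a ratio over 0.6, and 2 of the 14 EZH2 peaks reach that ratio.

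Peaks over the last exon were rare in the members, as they were over all genes, and the members' PHF13 peaks there were weak. A PHF13 peak covered the last exon of 6 members (2.41%, interval 1.11% to 5.16%), against 1.54% of all genes, and the interval included that value. EZH2 covered that of 2 members (0.803%, interval 0.221% to 2.88%), against 2.02%, again inside the interval. The last exon of 1 member (0.402%), ZNF546, had both, against 0.144% of all genes. Because the last exons of members are long, the summits were also counted per Mb of last exon: PHF13 had 6.58 (interval 2.42 to 14.3) against 6.95 over all genes, and EZH2 had 2.19 (interval 0.266 to 7.93) against 9.39. In the coding part alone, where the fingers are encoded, PHF13 had 7.996 summits per Mb against 15.6, and EZH2 2.67 against 28.8. Genes without finger arrays but with at least 1 kb of coding sequence in the last exon had 18.8 and 37.1 summits per Mb in that coding part. ZNF genes on other chromosomes were close to the members, with 9.97 PHF13 and 3.32 EZH2 summits per Mb. The counts in the members were 3 PHF13 summits and 1 EZH2 summit there, so the intervals are wide, 1.65 to 23.4 and 0.0675 to 14.8 per Mb. Restricted to single-copy sequence, the density over last exons was 5.94 PHF13 and 2.97 EZH2 summits per Mb in the members, against 5.74 and 8.58 over all genes.

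The PHF13 peaks of last exons had a median fold enrichment of 2.77, against 3.41 for the whole list. ZNF584 had the highest −log10 q, 2.93, with its summit in the 3′ untranslated region and a fold enrichment of 2.92. ZNF780A followed with 2.89 and a fold enrichment of 1.68, its summit inside a C2H2 pattern, in the first sequence shown above. The summits of ZNF875 (−log10 q 2.76) and ZNF546 (2.54) lay in 3′ untranslated regions. That of ZNF226 lay in a finger (second sequence), with a −log10 q of 1.70 and 14 fragments. ZNF574 had 1.39 and 13 fragments, in coding sequence. None of the 6 reached a −log10 q of 3, and those of ZNF584, ZNF875 and ZNF574 were also within 5 kb of a TSS of the same gene. Of the EZH2 peaks, that of ZNF546 was enriched 1.996-fold (−log10 q 5.81, 89 fragments over 44.1), in the 3′ untranslated region. That of ZNF571 was enriched 3.32-fold (−log10 q 3.06, 17 fragments), its summit inside a C2H2 pattern (last sequence of the first set), and this site is also an intron of ZNF540 on the other strand. The peaks of the lists over the last exon of ZNF546 did not overlap.

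In the remaining gene bodies 1 peak stood out in fold enrichment and in −log10 q. A PHF13 peak in an intron of ZNF507, 7863 bp from its nearest start, was enriched 6.47-fold (−log10 q 25.9, 59 fragments over 8.28). The next highest −log10 q of any member peak in that list was 7.61. A separate PHF13 peak covered the start of ZNF507, with a fold enrichment of 3.01, and no EZH2 peak was assigned to this gene. ZNF536 had 7 EZH2 peaks, the most of any member, and 3 PHF13 peaks, and no EZH2 peak came closer than 9197 bp to a PHF13 peak. It is a long gene (chr19:30715798-31204493), while the median member is 25932 bp long, and these counts are not per length. Counted over gene bodies, PHF13 was in 38 members (15.3%) against 26.8% of all genes, EZH2 in 20 (8.03%) against 26.2%, and both in 12 (4.82%) against 10.7%. Per length of gene body the PHF13 gap was small, with 6.09 summits per Mb (interval 4.46 to 8.13) against 6.59 over all genes, while EZH2 had 3.84 (interval 2.57 to 5.52) against 7.18.

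The AP-1 site, TGACTCA or its reverse complement TGAGTCA, was sought in 200 bp at each summit. It was in 0 of the 32 PHF13 peaks near a member TSS, which by 3 counts allows a share of up to 9.38%. The Wilson interval, 0% to 10.7%, included the 9.75% of the PHF13 peaks near all protein-coding starts that had it. Of all 54 PHF13 peaks of members 2 had it (3.70%, interval 1.02% to 12.5%), in an intron of ZNF568 and in coding sequence of ZNF71, against 11.2% of the whole list, a value inside that interval. None of the 33 EZH2 peaks had it (interval 0% to 10.4%), against 2.31% of that list. A difference between the members and the lists in this site was not detectable with so few peaks.

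The lists overlapped at 1 member only. A single PHF13 peak (1.85%, interval 0.328% to 9.77%) overlapped an EZH2 peak, against 11.7% of the whole PHF13 list, and a single EZH2 peak (3.03%, interval 0.537% to 15.3%) overlapped a PHF13 peak, against 10.3% of that list, which lies inside the interval. Of the peaks near protein-coding starts 6.67% of PHF13 and 4.52% of EZH2 overlapped the other list, and both values lie inside the members' intervals. It is the pair upstream of ZNF780A, with summits 75 bp apart. PHF13 had a fold enrichment of 1.67 there, with 92 fragments over 54.8, and EZH2 had 1.69, with 89 over 52.1. In the other 12 members with peaks of both lists the nearest peaks were between 221 bp (ZNF546) and 55761 bp (ZNF420) apart.

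ZNF546, ZNF780B and ZNF780A lie side by side, and the local background, which MACS2 takes from the input, was high across them. Their 10 PHF13 peaks had between 53.4 and 64.8 background fragments and folds between 1.61 and 2.02. The other 44 PHF13 peaks of members had between 4.23 and 9.65 background fragments and folds between 2.63 and 6.47. Among the EZH2 peaks, 8 had a background of 20 fragments or more, the peak near a start of ZNF536 and 7 in this trio. Without peaks of such background, PHF13 was near a TSS in 29 members (11.6%) and over the last exon of 4, EZH2 was near a TSS in 12 (4.82%) and over the last exon of 1, and no peaks of the lists overlapped. The share of all genes under the same limit was 20.8% for PHF13 and 20.9% for EZH2 near a TSS.

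**Figure D3:**
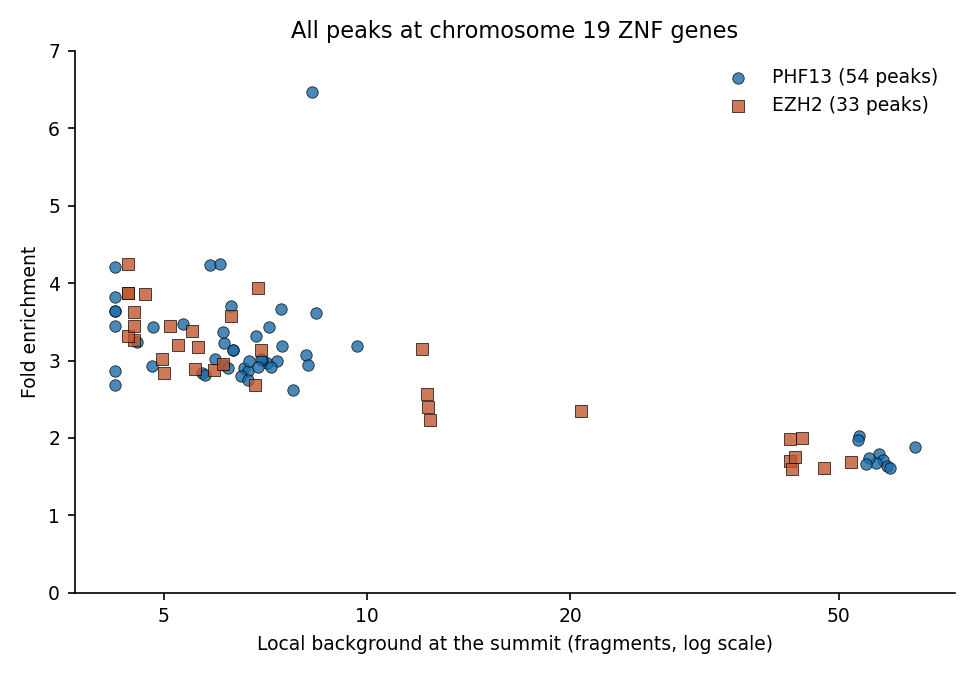
Fold enrichment (y axis) against the local background at the summit (x axis, fragments, log scale) for the 54 PHF13 and 33 EZH2 peaks of chromosome 19 ZNF genes. The peaks at 20 fragments or more, 10 of PHF13 and 8 of EZH2, all have folds of 2.34 or less.

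Along the chromosome, the peaks were unevenly placed. In the first 26 Mb, from the short-arm end through the pericentromeric clusters, PHF13 was near a TSS of 1 of 85 members (1.18%, interval 0.208% to 6.37%), ZNF254, and EZH2 was near none (interval 0% to 4.32%), which by 3 counts allows a share of up to 3.53%. The other genes of that segment had PHF13 at 92 of 557 (16.5%) and EZH2 at 78 of 557 (14.0%). One cluster there, from ZNF101 to ZNF254, holds 37 members. Between 20 and 24 Mb, inside this cluster, neither list had any single-copy peak. The PHF13 peak nearest to a start of ZNF429 was 1888930 bp away. The other genes of the segment were not matched to the members by position. Between 26 and 39 Mb, PHF13 was near a TSS of 15 of 33 members (45.5%, interval 29.8% to 62.0%), against 35 of 118 other genes (29.7%, interval 22.2% to 38.4%). The intervals overlap, and some of these members share a peak. EZH2 was near 4 of the 33 (12.1%), against 36 of 118 (30.5%). Most of these PHF13 genes belong to the cluster from ZNF565 to ZNF573 (chr19:36673178-38307940), where 12 of 26 members had PHF13 near a TSS and 3 had EZH2. Between 39 and 41 Mb, all 3 members had both proteins near a TSS, and the other genes there also had high shares, with PHF13 at 30 of 63 (47.6%) and EZH2 at 27 of 63 (42.9%). Between 41 and 51 Mb, PHF13 was near 2 of 29 (6.90%) and EZH2 near 1 of 29 (3.45%), against 26 of 303 (8.58%) and 49 of 303 (16.2%) of the other genes. In the rest of the long arm, PHF13 was near 11 of 99 (11.1%) and EZH2 near 8 of 99 (8.08%), against 22.6% and 27.4% of the other genes there.

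The local background at single-copy peaks differed between the same segments. In the PHF13 list its median was 4.44, 6.88, 59.0, 4.23 and 7.88 fragments from the first segment to the fifth, and the share of peaks at the floor of 4.23 was 36.3%, 0%, 0%, 51.6% and 1.92%. In the EZH2 list the medians were 6.495, 9.33, 79.3, 7.36 and 9.88. The first and the fourth segment, with the smallest shares of bound members, had the lowest background in both lists, and the part of the local background in the counts was not tested. The members of the first segment also had the last exons with the lowest share of single-copy 24-mers, a median of 64.8%.

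**Figure D4:**
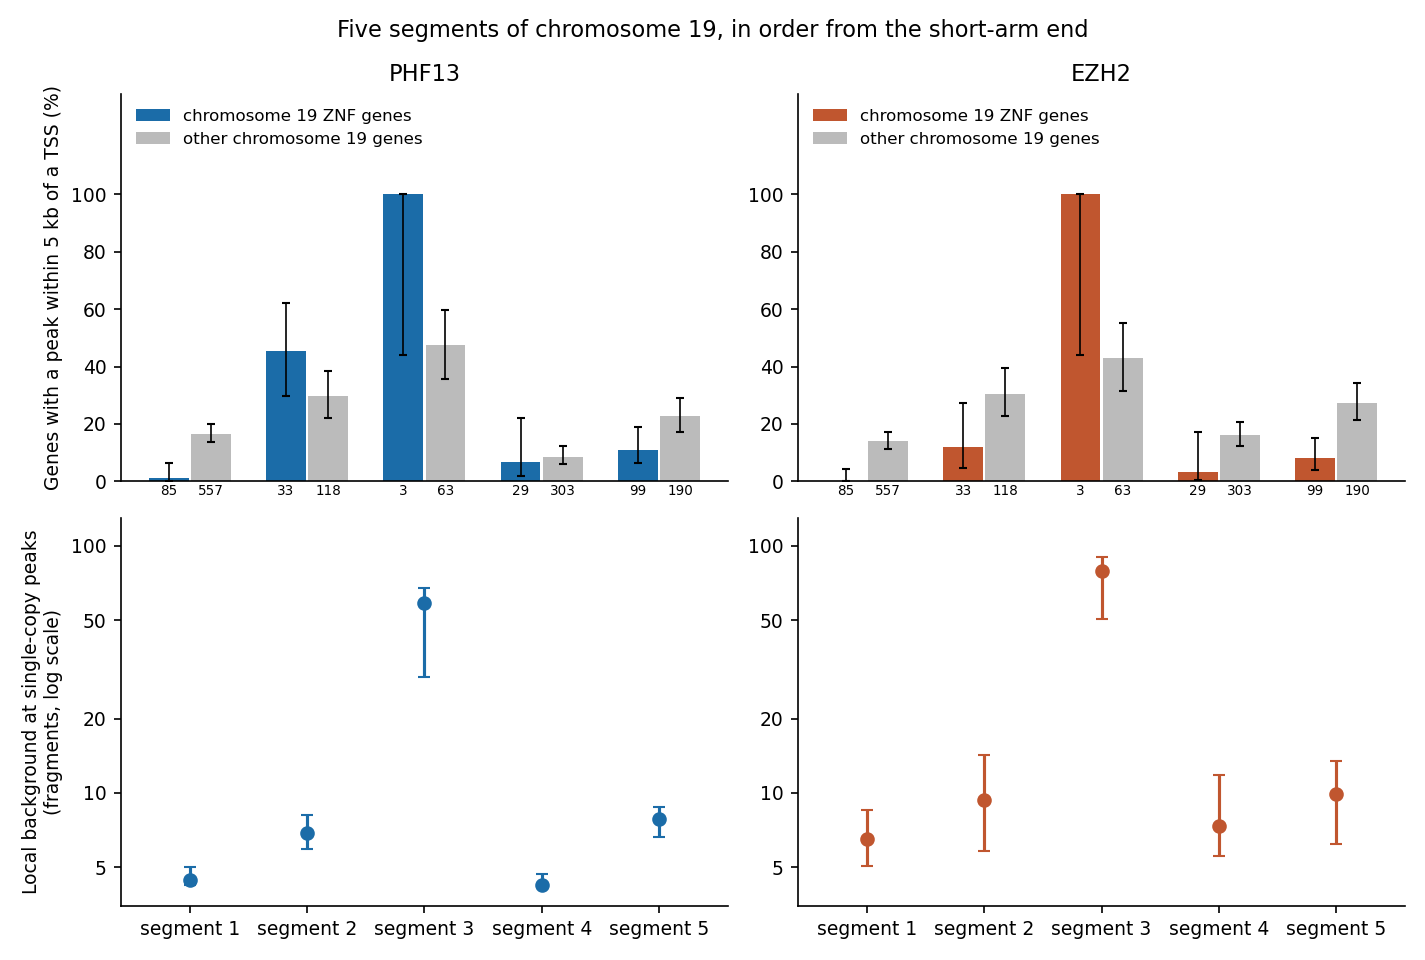
Top: share of genes with a peak within 5 kb of a TSS (y axis, %) in 5 consecutive segments of chromosome 19, for ZNF genes (coloured) and other genes (grey), with the number of genes under each bar and 95% Wilson intervals. Bottom: median local background (fragments, log scale) at single-copy peaks of the segment, with quartiles. The ZNF shares run from 1.18% in segment 1 to 100% of 3 genes in segment 3 for PHF13, and from 0% to 100% for EZH2, and segment 3 has the highest background in both lists.

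Of 6 members with a known role, 4 had no peak, beside 195 of all 249 members (78.3%) and 51.4% of all protein-coding genes. ZNF274, which binds the 3′ ends of other zinc finger genes, had no peak of either list, and the nearest PHF13 peak was 97139 bp from its start. ZNF91 and ZNF93, repressors of SVA and LINE-1 retrotransposons, and ZNF350, a corepressor partner of BRCA1, had none either. ZNF382, a KRAB repressor described as a tumour suppressor, had an EZH2 peak 2434 bp from a start with a −log10 q of 2.06 and 16 fragments, and that peak was shared with ZNF529. Its median 24-mer occurred 346 times in the genome and its median 50-mer once. ZNF331, an imprinted gene, had 1 EZH2 peak at 4108 bp (−log10 q 2.51) and 2 intronic PHF13 peaks at 6011 and 6466 bp from its nearest start (−log10 q 4.02 and 3.22).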

How the data were processed

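PHF13, EZH2 and input chromatin of PANC-1 were sequenced in 1 library each. Per the methods and the processing notes, the authors trimmed reads with Trim Galore 0.4.1, aligned them to hg19 with Bowtie 2 2.4.1 at default settings, retained mapped read pairs, discarded duplicates (Picard) and ran MACS2 2.2.7.1 against input for each antibody separately. No mapping-quality filter is stated. The authors deposited, for each of 19039 PHF13 and 21639 EZH2 peaks, a score, the fold enrichment at the summit and the p-value and q-value as −log10. The weakest −log10 q is 1.30 in both lists, looser than the stated PHF13 limit, and EZH2 was deposited as narrow peaks although broad calling is described. The peak lists hold no total read number, so the depth behind a peak was taken from the fragments at its summit.

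Here the deposited fold and −log10 p were solved together for the fragments at the summit (median 21 for PHF13, 25 for EZH2) and the local background, whose floor is 4.23 and 4.42 fragments. Genes, TSSs and last exons (canonical transcript) came from GENCODE release 44 mapped to GRCh37, and coordinates are 1-based. The 5 kb distance is the one the study used. Overlap was 1 bp or more. The C2H2 pattern was sought in the coding sequence. Copies of 24-mers were counted over the genome in 100 bp at each summit, and a peak was single-copy when its median 24-mer occurred once. Intervals are Wilson for shares and exact Poisson for densities, at 95%. No test was made. Scripts were tested on simulated peaks, with Python 3.11.15 and SciPy 1.17.1.

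Members and lists were chosen with earlier results of these data known, and the segments and the limit of 20 background fragments after the values were seen. Named members were those with the 8 highest −log10 q near a TSS or over a last exon per list, those with overlapping peaks, and 6 with known roles; ZNF254, ZNF260, ZNF415, ZNF419, ZNF420, ZNF507, ZNF529, ZNF568 to ZNF571, ZNF71, ZNF524 and ZNF865, and cluster ends, were named after their values were seen. Alternatives were stricter q limits, mappability, distance, TSS and exon definitions, all C2H2 genes of the chromosome, and the background limit. One sequence is not reported here.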

Additional observations from a re-analysis of the deposited data

How the results depend on the processing

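Of 61 alternative values for 12 results, 38 stayed within 1.5 times or the counting interval of the reported value and 23 moved. At a −log10 q of at least 3, PHF13 was near a TSS in 21 members and over no last exon (0 members, density 0 per Mb), peaks of both lists were near a TSS in 1 member and over a last exon in 0, and 0% of the peaks of either list overlapped. At a −log10 q of at least 5, PHF13 was near a TSS in 11 members and over 0 last exons (0 per Mb), EZH2 was near a TSS in 3 members and over 1 last exon, both were together near a TSS in 0 members and over a last exon in 0, and the overlap was 0% for each list. Over all genes these limits left PHF13 near a TSS in 14.0% and 6.62%, and EZH2 in 19.8% and 14.3%. The members' shares were 8.43% (interval 5.58% to 12.5%) and 4.42% (interval 2.48% to 7.74%) for PHF13. For EZH2 they were 4.42% (interval 2.48% to 7.74%) and 1.20% (interval 0.411% to 3.48%). At the limit of 5 the PHF13 interval included the value over all genes. With peaks single-copy by 24-mers, EZH2 was near a TSS in 9 members (3.61%), against 20.6% of all genes. Both lists were then near a TSS in 3 members and over a last exon in 0. With peaks single-copy by 50-mers, EZH2 was near a TSS in 15 members (6.02%), against 21.9% of all genes. A distance of 1 kb left EZH2 at 4 members. Without peaks near a TSS, PHF13 was over 3 last exons. The last exon of any transcript gave EZH2 4 members (ZNF765 and ZNF875 added). With a local background under 20 fragments, an alternative chosen after seeing the data, EZH2 was over 1 last exon. All 277 chromosome 19 genes with at least 3 C2H2 patterns had PHF13 near a TSS in 39 and EZH2 in 19, beside 21% and 23.6% of all protein-coding genes. The cause of these moves was not tested beyond the smaller set of peaks each limit leaves. No PHF13 last-exon peak remained for a median fold at the stricter limits, and the median fold of EZH2 peaks near a TSS was 3.53 at a −log10 q of at least 3.

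No paired analysis was possible because there is 1 library per antibody and no result comes from a test. Summits hold few fragments, so an absent peak means that none was detectable at this depth, and in last exons with repeated sequence reads could not always be placed.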

Other observations

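PHF13 was found near the starts of several genes for proteins that work with KRAB zinc finger proteins. Of 17 genes for TRIM28, SETDB1 and its cofactor ATF7IP, the HUSH complex with MORC2, heterochromatin protein 1, ATRX and DAXX, DNMT1 and the other H3K9 methyltransferases, PHF13 lay near a start (5 kb or less) of 8 (47.1%), and EZH2 near a start of 2 (11.8%), against 21% and 23.6% of all protein-coding genes. No last exon of these genes had a peak. PHF13 peaks covered a start of SETDB1 (fold enrichment 3.68, −log10 q 4.00), of PPHLN1 (3.81 and 5.43), a HUSH subunit, and of TASOR (3.56 and 3.75), another HUSH subunit. SUV39H2, an H3K9 methyltransferase, had PHF13 34 bp from a start (3.83 and 4.05). CBX5 and CBX3, which encode heterochromatin protein 1 alpha and gamma, had weaker peaks, with a −log10 q of 1.77 and 1.39. For DAXX and DNMT1 the PHF13 peak lay farther away, at 4511 and 2542 bp. TRIM28, itself on chromosome 19, had no PHF13 peak and an EZH2 peak 4495 bp from a start (fold enrichment 3.68, −log10 q 18.0), and DNMT1 had an EZH2 peak at 911 bp with a −log10 q of 2.09. The list is short, so counting error is large, and no interval is given for its shares. Its genes were chosen with earlier results known, and the differences from the members and from all genes were not tested.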
